A study of Mus musculus with 24 samples.

Results

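Levels of 7 genes that encode subunits of the GABA-A receptor were followed in the hippocampus of aged Tg2576 mice given an HDAC inhibitor, a PDE5 inhibitor, both drugs or the compound CM-414. The genes were Gabra2, Gabra4, Gabra5, Gabrb1, Gabrb2, Gabrg3 and Gabrd, and they were chosen by name. Each was read from its single probe set, a group of probes on the array that the platform annotation assigns to 1 gene, and all 7 were among the 17092 protein-coding genes that passed the expression floor of 4 on the log2 scale. All values below are the deposited log2 expression levels or differences between such levels.

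GABA-A receptors are chloride channels opened by the transmitter GABA, and they carry most of the fast inhibition in the brain. Each receptor is assembled from several subunits, usually α and β subunits with a γ or a δ subunit. Many receptors with a γ subunit gather at synapses, and receptors with a γ subunit bind benzodiazepines when the α subunit allows it. Receptors with α5, which can also hold a γ subunit, and receptors with α4 and δ lie largely outside the synapse and respond to ambient GABA. The α5 subunit is a hallmark of hippocampal pyramidal cells, and α4 and δ are abundant in dentate granule cells and in the thalamus.

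Tg2576 mice express a human amyloid precursor protein with the Swedish mutation under the prion promoter, and all 24 arrays came from such mice, so the design holds no wild-type hippocampus. The line Tg2576 is named in the methods, which describe females. The labels give an age of 16 to 18 months and the strain B6.Cg-Tg(APPswe)E1-2Dbo/J, which does not contain the name Tg2576. Whether these names stand for the same line was not checked. There were 7 arrays after vehicle (saline in the labels, a DMSO solution in the methods), 3 after vorinostat, an HDAC inhibitor, 3 after tadalafil, a PDE5 inhibitor, 7 after the combination of both drugs and 4 after CM-414, known here only by its code name. Dosing ran for 4 weeks, then stopped for 4 weeks before the reversal phase of the Morris water maze, and RNA was taken after that phase. One hippocampus of an animal was used for an array, and the labels number the animals of each group as biological replicas.

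Array medians lay between 5.90 and 5.98. Vehicle 3 and CM-414 3 stood apart from the other 22 arrays. Averaged over 12 genes that mark thalamus, they reached 8.93 and 9.21 where the others had 6.95 to 7.84, and over 7 genes that mark the CA1 field of the hippocampus they reached only 7.16 and 6.89 where the others had 8.09 to 8.63. The thalamus mean of 7.84 was that of vehicle 2, and the remaining 21 arrays had 6.95 to 7.25. By group, the thalamus mean ran from 7.08 to 8.93 in vehicle, 7.12 to 7.20 in vorinostat, 7.13 to 7.24 in tadalafil, 6.95 to 7.22 in the combination and 7.18 to 9.21 in CM-414. The thalamus marker Tcf7l2 reached 10.55 and 10.05 in the 2 arrays and lay between 5.84 and 7.18 elsewhere, where vehicle 2 was again the highest. CM-414 4 had a mean of 7.94 for 4 striatum markers, and CM-414 3 one of 7.67, against 6.94 to 7.32 in the others. In CM-414 3, Drd2 (7.83) and Rgs9 (8.58) were the highest of all arrays, but Drd1 (6.31) and Pde10a (7.95) were within the range of the others. The small nucleolar RNA Snord13 also divided the arrays into a first set of 12 below 9 and a second set of 12 above it. All vorinostat and tadalafil arrays were in the first set and all CM-414 arrays in the second, with 3 vehicle and 3 combination arrays in the first and 4 of each in the second, so that set and treatment cannot be told apart between the single drugs and CM-414. Results are therefore given with and without vehicle 3 and CM-414 3, and the part of tissue composition in them was not tested. In tissue of this kind, fewer cells of a type and less RNA per cell cannot be told apart.

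RefSeq start-site windows (GRCm38.p6, 250 bases before to 50 after the annotated start) were available for 6 of the 7 genes, Gabrb1 and Gabrb2 having several starts, which gave 9 windows. Both strands were searched for the full cAMP response element TGACGTCA, to which CREB binds, its half-site TGACG (which the full element contains), the GC box GGGCGG and the TATA box TATAAA. Gabrg3 and Gabra5 are shown because they lie next to each other on chromosome 7. The Pearson correlation (r) of their levels was 0.67 over the 22 arrays without vehicle 3 and CM-414 3, and 0.33 over all 24. Gabra2 is shown because its spread was the next largest after Gabrg3, and the first Gabrb2 window because it holds the only CRE half-site. The windows are chr7:57387166-57387465 on the minus strand for Gabrg3, chr7:57510010-57510309 on the minus strand for Gabra5, chr5:71095800-71096099 on the minus strand for Gabra2 and chr11:42420190-42420489 on the plus strand for Gabrb2. Capitals mark the motif matches.
Gabrg3: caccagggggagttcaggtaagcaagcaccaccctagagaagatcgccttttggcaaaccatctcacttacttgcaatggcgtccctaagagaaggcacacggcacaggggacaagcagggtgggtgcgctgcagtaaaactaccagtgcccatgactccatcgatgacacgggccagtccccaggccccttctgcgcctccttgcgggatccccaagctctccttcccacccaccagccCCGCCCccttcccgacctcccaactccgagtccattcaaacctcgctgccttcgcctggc
Gabra5: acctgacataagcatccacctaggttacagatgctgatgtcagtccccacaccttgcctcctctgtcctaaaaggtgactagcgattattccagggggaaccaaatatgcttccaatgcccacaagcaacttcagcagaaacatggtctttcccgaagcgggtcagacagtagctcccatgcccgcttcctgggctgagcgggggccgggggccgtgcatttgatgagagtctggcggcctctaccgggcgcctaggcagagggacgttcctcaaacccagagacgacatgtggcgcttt
Gabra2: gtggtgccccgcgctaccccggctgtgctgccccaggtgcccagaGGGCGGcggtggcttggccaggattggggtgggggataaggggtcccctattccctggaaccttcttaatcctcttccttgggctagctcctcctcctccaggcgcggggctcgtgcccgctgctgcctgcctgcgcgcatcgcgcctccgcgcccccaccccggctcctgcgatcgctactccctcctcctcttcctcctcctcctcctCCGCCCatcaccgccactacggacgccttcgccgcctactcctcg
Gabrb2: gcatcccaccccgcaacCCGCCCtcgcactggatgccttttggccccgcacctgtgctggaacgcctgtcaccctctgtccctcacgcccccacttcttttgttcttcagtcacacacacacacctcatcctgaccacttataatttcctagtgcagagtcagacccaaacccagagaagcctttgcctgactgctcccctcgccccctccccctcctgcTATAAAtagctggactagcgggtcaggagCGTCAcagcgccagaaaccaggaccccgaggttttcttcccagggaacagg

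None of the 9 windows held the full cAMP response element, which occurs in 1.79% of the 32851 windows of the RefSeq table. The half-site was in 1 of the 9, against 20.8% of all windows, the GC box in 4 against 35.7% and the TATA box in 1 against 13.6%. The GC box matches were 2 in Gabra2, 2 in Gabra4, 1 in Gabrg3 and 1 in Gabrb2. The Gabra2 window was 70% G and C with 25 CpG dinucleotides, whereas the median window had 52.7% and 7. Gabra5, with 56.7% and 13, held none of the motifs. These are matches of letters and not measured binding sites.

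The first question was whether any subunit gene changed with treatment. None of the 7 passed the adjusted p of 0.05 (limma, Benjamini-Hochberg over all 17092 genes) in any of 7 comparisons or in the test of any difference among the 5 groups. Few genes of any kind did: 0.00585% with vorinostat, 0% with tadalafil, 0% with the combination and 0.00585% with CM-414, each against vehicle, 0% and 0% in the combination against vorinostat and against tadalafil, 0.0234% in CM-414 against the combination and 0.152% in the test over the 5 groups. At an unadjusted p under 0.05 the count was 0 of 7 with vorinostat, tadalafil and the combination against vehicle, where 8.76, 5.32 and 4.04% of all genes reached it. It was 1 of 7, Gabrd, in CM-414 against vehicle (12.6% of all genes) and in the test over the groups (13.7%), and 3 of 7, Gabra5, Gabrg3 and Gabrd, in CM-414 against the combination (15.9%). It was 0 of 7 in the combination against vorinostat (8.39%) and against tadalafil (4.16%).

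The median difference of the 7 genes from vehicle was 0.11 after vorinostat, 0.10 after tadalafil, 0.15 after the combination and 0.00 after CM-414, where the median over all genes was -0.01, 0.00, 0.00 and -0.01. In the combination 6 of the 7 genes had a mean above vehicle, and over all genes 8495 of 17092 did. Without vehicle 3 and CM-414 3 these medians were -0.02 after vorinostat, 0.02 after tadalafil, 0.04 after the combination and -0.06 after CM-414, and 4 of the 7 genes were above vehicle in the combination. Gabra2 and Gabra4 turned to -0.01 and -0.07 there and Gabra5 went from 0.27 to 0.10. Over all comparisons, 11 of the 49 differences of the 7 genes changed direction without these arrays.

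**Figure D1:**
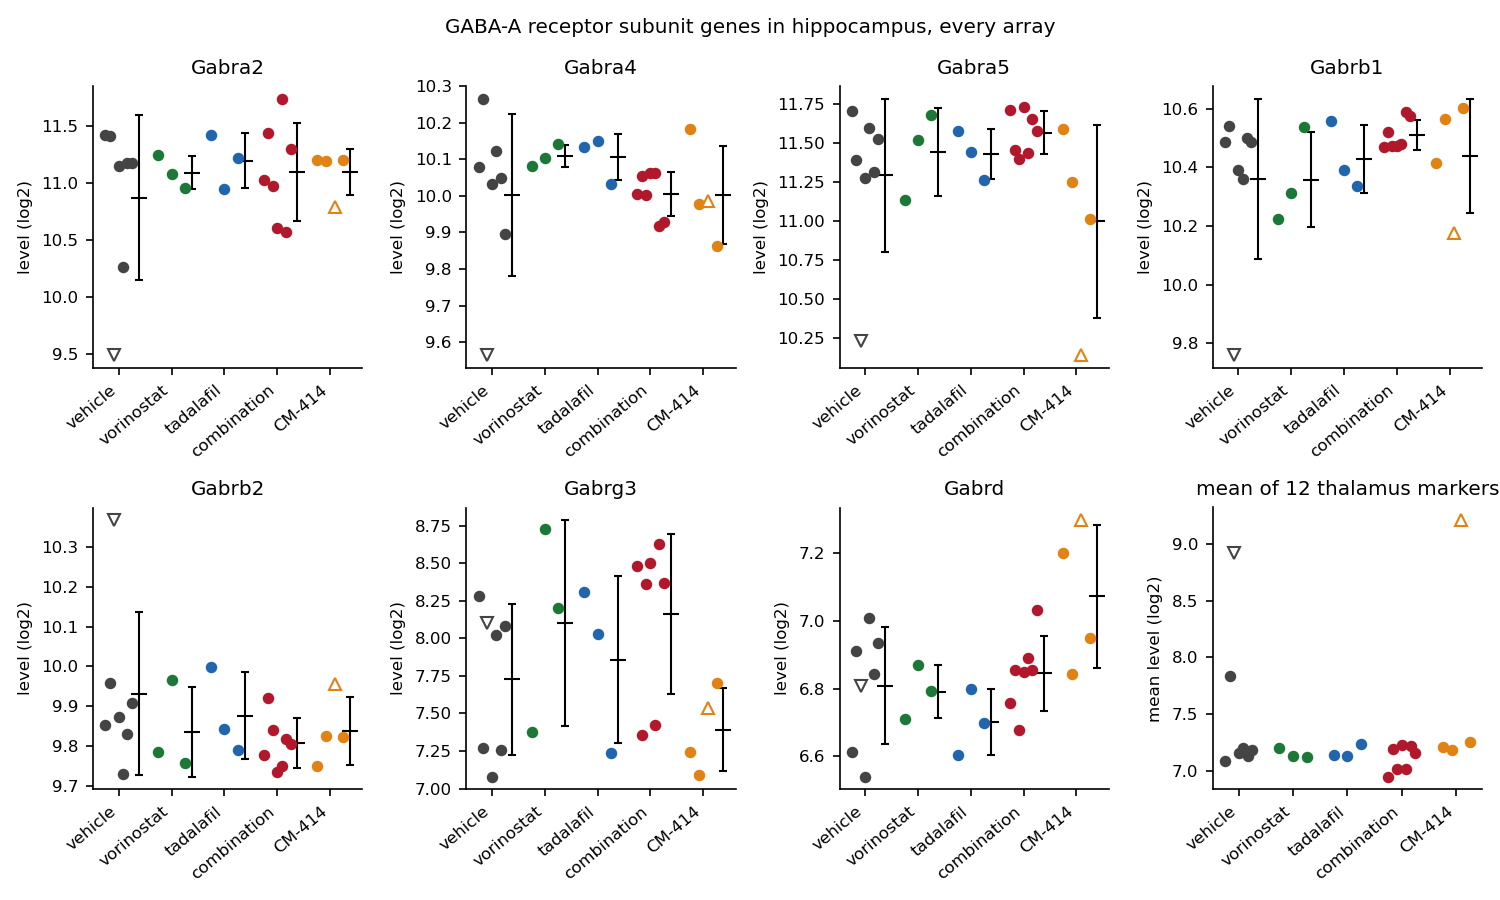
Log2 level of each subunit gene in every array by group, with the mean of 12 thalamus markers in the last panel; filled circles are single arrays, open triangles are vehicle 3 (pointing down) and CM-414 3 (pointing up), and the black bar beside each group is its mean ± SD over all its arrays. The open triangles lie outside the other 22 arrays for Gabra5 and Gabrb1, at 10.23 and 10.14 and at 9.76 and 10.17. For Gabrg3, 4 of the 5 groups have arrays on both sides of the empty stretch from 7.70 to 8.02.

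Gabra2 encodes the α2 subunit, found on pyramidal cells including their axon initial segment. In the 7 vehicle arrays its level ran from 9.49 through a median of 11.17 to 11.42. It was 11.24, 11.07 and 10.96 after vorinostat and 11.42, 10.95 and 11.22 after tadalafil. The 7 combination arrays ran from 10.57 through 11.03 to 11.74. The CM-414 arrays gave 11.20, 11.19, 10.79 and 11.20. The single array at 9.49 was vehicle 3, the lowest of all 24, and each group overlapped with vehicle. The combination differed from vehicle by 0.22 (SE 0.24, 95% interval -0.27 to 0.71, adjusted p 0.995 by limma), a value that fell to -0.01 (SE 0.18) without the 2 arrays. Tadalafil differed by 0.33 (SE 0.31) with all arrays and by 0.10 (SE 0.23) without them, and the direction turned, to -0.08 (SE 0.25), with the array set as a block besides.

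Gabra2 also varied within groups beyond those arrays. Its residual SD around the group means over 22 arrays was 0.36, larger than that of 98.2% of the tested genes, where the median gene had 0.15. Vehicle 5 at 10.26, combination 6 at 10.57 and combination 4 at 10.60 lay below a gap of 0.35, and the other 19 arrays were between 10.95 and 11.74. Those 3 arrays belong to 2 groups and to the second array set.

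Gabra4 encodes the α4 subunit of receptors outside the synapse. Vehicle arrays ran from 9.56 through 10.05 to 10.27 and combination arrays from 9.92 through 10.01 to 10.06. The level was 10.08, 10.10 and 10.14 after vorinostat, 10.13, 10.15 and 10.03 after tadalafil and 10.18, 9.98, 9.99 and 9.86 after CM-414. Vehicle 3 was again the lowest of all, and the other 23 arrays covered only 9.86 to 10.27. The combination differed from vehicle by 0.00 (SE 0.08, 95% interval -0.16 to 0.16) with all arrays. The difference was -0.07 (SE 0.06) without vehicle 3 and CM-414 3 and -0.08 (SE 0.06) with the array set as a block besides. All 7 combination arrays were below all 3 vorinostat arrays, a difference of -0.10 (SE 0.10, adjusted p 0.837, limma). Without vehicle 3 and CM-414 3 and with the array set as a block it was -0.06 (SE 0.08). In that comparison 1 of the 7 genes had such separate groups over all arrays, where 4.94% of all genes did. In the other 6 comparisons 0 of the 7 genes had separate groups, where 3.48, 2.14, 0.0761 and 1.18% of all genes did with vorinostat, tadalafil, the combination and CM-414 against vehicle, 2.47% in the combination against tadalafil and 2.16% in CM-414 against the combination.

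Gabra5 encodes the α5 subunit, which carries tonic inhibition of hippocampal pyramidal cells. Vehicle arrays ran from 10.23 through 11.39 to 11.70. The level was 11.13, 11.52 and 11.68 after vorinostat and 11.58, 11.44 and 11.26 after tadalafil. Combination arrays kept to the upper end, from 11.40 through 11.58 to 11.73, and CM-414 arrays were at 11.59, 11.25, 10.14 and 11.01. The values of 10.23 and 10.14 belonged to vehicle 3 and CM-414 3, while the other 22 arrays lay between 11.01 and 11.73. Of the CM-414 arrays only CM-414 1 fell inside the range of the combination.

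CM-414 was lower than the combination in Gabra5 by a difference of -0.57 (SE 0.23, unadjusted p 0.0188, adjusted p 0.223, limma). The difference was -0.28 (SE 0.13, adjusted p 0.296) without vehicle 3 and CM-414 3, and again -0.28 with the array set as a block besides (adjusted p 0.466). Leaving out CM-414 3 alone also gave -0.28, and leaving out CM-414 1 gave -0.77. With the mean of the thalamus markers as a covariate it was -0.20. Without vehicle 2 and CM-414 4 as well, it was -0.15 (SE 0.14, unadjusted p 0.310); CM-414 4, the array with high striatum markers, was the lowest of the other 22 in Gabra5. The combination differed from vehicle by 0.27 (SE 0.19, adjusted p 0.995) and by 0.10 (SE 0.10) without the 2 arrays.

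Gabrb1 encodes the β1 subunit. Vehicle arrays ran from 9.76 through 10.48 to 10.54 and combination arrays from 10.47 through 10.48 to 10.59. The level was 10.22, 10.31 and 10.54 after vorinostat, 10.56, 10.39 and 10.34 after tadalafil and 10.41, 10.56, 10.17 and 10.60 after CM-414. Vehicle 3 and CM-414 3 were the lowest arrays, at 9.76 and 10.17, and the combination had the narrowest spread of any group, with an SD of 0.05. The combination differed from vehicle by 0.15 (SE 0.10, adjusted p 0.995, limma) and by 0.05 (SE 0.06) without the 2 arrays. Against vorinostat it was higher by 0.15 in both fits, with an unadjusted p of 0.229 in the first and 0.0434 in the second, and an adjusted p of 0.414 in the second. With the array set as a block besides, that difference was 0.16 (SE 0.08, unadjusted p 0.0567, adjusted p 0.515, limma). The range over leaving out single arrays was 0.09 to 0.24.

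Gabrb2, which encodes the β2 subunit, a common partner in synaptic receptors and abundant in thalamus, was the most even of the 7 genes. Vehicle arrays ran from 9.73 through 9.87 to 10.37 and combination arrays from 9.74 through 9.81 to 9.92. The level was 9.79, 9.97 and 9.76 after vorinostat, 9.998, 9.84 and 9.79 after tadalafil and 9.75, 9.82, 9.96 and 9.82 after CM-414. The value of 10.37 was vehicle 3, the highest of the 24 arrays, so this gene was high in the array where Gabra2, Gabra4, Gabra5 and Gabrb1 were low. Its residual SD over the 22 arrays was 0.08, and only 4.24% of genes had a smaller one. The combination differed from vehicle by -0.12 (SE 0.07, 95% interval -0.28 to 0.03, adjusted p 0.995, limma) and by -0.05 (SE 0.05) without the 2 arrays.

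Gabrg3 encodes the γ3 subunit, a minor γ subunit in forebrain. Vehicle arrays were at 8.28, 7.27, 8.11, 7.08, 8.02, 7.26 and 8.08. Vorinostat arrays were at 7.37, 8.73 and 8.21, and tadalafil arrays at 8.31, 8.03 and 7.24. Combination arrays were at 8.48, 7.36, 8.36, 8.50, 7.42, 8.63 and 8.37, and CM-414 arrays at 7.24, 7.09, 7.54 and 7.70. Over the 22 arrays without vehicle 3 and CM-414 3, the widest gap between neighbouring values was from 7.70 to 8.02. It was used to divide the arrays into a lower and an upper level, a cut taken from these same values. CM-414 4, at 7.70, lay at the edge of the gap, and the others of the 22 below the cut were at 7.08 to 7.42. Of the 22 arrays without vehicle 3 and CM-414 3, 10 were in the lower level and 12 in the upper. The upper level held 3 of 6 vehicle, 2 of 3 vorinostat, 2 of 3 tadalafil, 5 of 7 combination and 0 of 3 CM-414 arrays.

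The residual SD of Gabrg3 was 0.53, and of all tested genes 57 had a larger one. Its differences between groups had wide errors accordingly. The combination was 0.43 above vehicle (SE 0.25, 95% interval -0.08 to 0.95, adjusted p 0.995, limma), and 0.50 (SE 0.26) without the 2 arrays. Vorinostat was 0.38 above vehicle (SE 0.32), but the value ran from 0.06 without vorinostat 2 to 0.74 without vorinostat 1, vorinostat 1 being the only one of its group in the lower level. CM-414 was below the combination by a difference of -0.77 (SE 0.29, unadjusted p 0.0148, adjusted p 0.206). That difference was -0.82 (SE 0.32, adjusted p 0.243) without the 2 arrays and -0.83 (adjusted p 0.403) with the array set as a block besides. Leaving out single arrays gave -0.90 to -0.67.

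Gabrd encodes the δ subunit, which pairs with α4 in dentate granule cells and thalamic neurons. Vehicle arrays ran from 6.54 through 6.84 to 7.01 and combination arrays from 6.68 through 6.85 to 7.03. The level was 6.71, 6.87 and 6.79 after vorinostat, 6.60, 6.80 and 6.70 after tadalafil, and 7.20, 6.84, 7.30 and 6.95 after CM-414. CM-414 1 and CM-414 3 were the highest of the 24 arrays, and CM-414 2 and CM-414 4 lay within the vehicle range. The dentate marker mean was 8.03 in CM-414 1, the highest of all arrays, but 6.53 in CM-414 3 and 6.61 in CM-414 4, near the lowest, which was 6.39 in vehicle 3, and its part in the Gabrd values was not tested.

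CM-414 was above vehicle in Gabrd by 0.26 (SE 0.09, 95% interval 0.07 to 0.46), the smallest unadjusted p of the 7 genes against vehicle, at 0.00944, and its adjusted p was 0.225 (limma). The difference was 0.19 (SE 0.10, adjusted p 0.408) without vehicle 3 and CM-414 3 and 0.15 (adjusted p 0.591) with the array set as a block besides. Against the combination it was 0.23 (SE 0.09, adjusted p 0.239) with all arrays, 0.15 (SE 0.10) without the 2, and 0.10 (SE 0.10, adjusted p 0.748) with the array set as a block besides. Vorinostat, tadalafil and the combination differed from vehicle in Gabrd by -0.02, -0.11 and 0.04, with errors of 0.10, 0.10 and 0.08.

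**Figure D2:**
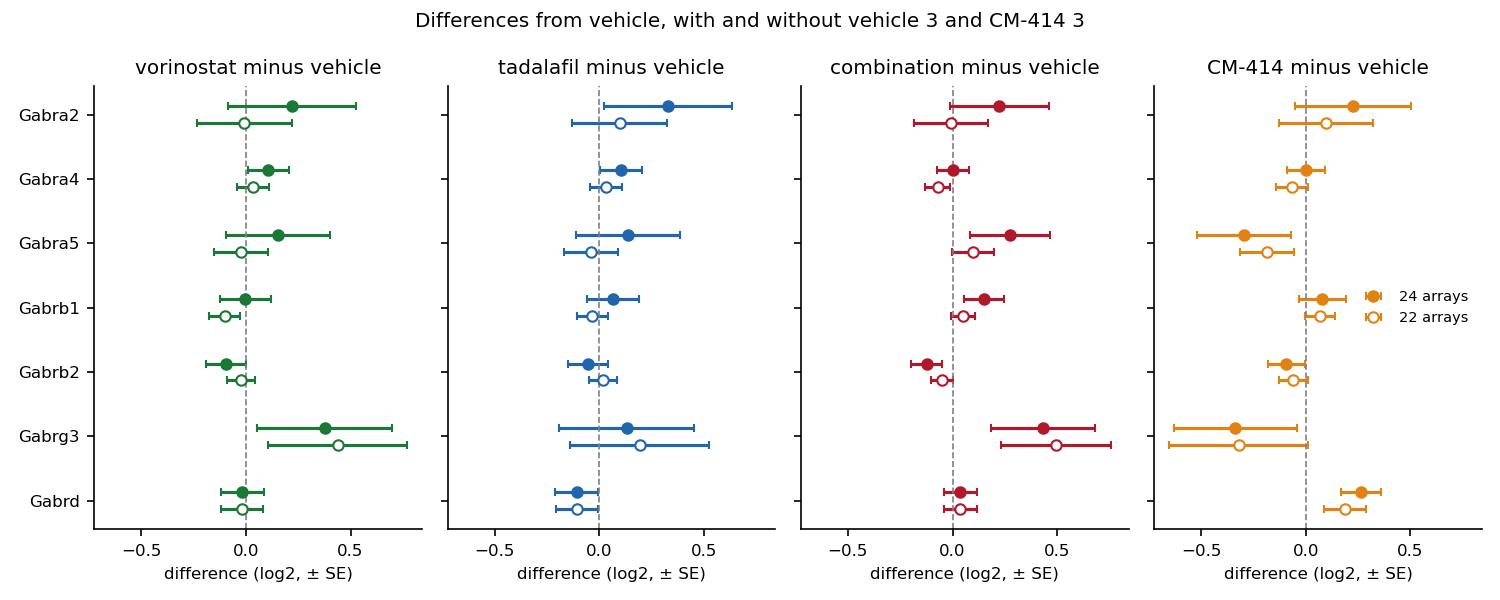
Difference of each treated group from vehicle in log2 level for the 7 genes, with filled circles for all 24 arrays, open circles for the 22 arrays without vehicle 3 and CM-414 3, and bars of 1 SE from the limma fit. For Gabra2 after the combination the point moves from 0.22 to -0.01, whereas for Gabrg3 it moves only from 0.43 to 0.50.

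The order of the group means within a gene was mostly not separated. Of 28 steps between neighbouring groups over the 7 genes, 2 exceeded the larger SD of the pair: tadalafil over the combination in Gabra4 and CM-414 over the combination in Gabrd. Without vehicle 3 and CM-414 3, 0 of 28 did. The combination had the highest mean in Gabra5, Gabrb1 and Gabrg3 with all arrays, and CM-414 the lowest in Gabra5 and Gabrg3.

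The 2 arrays with high thalamus markers showed subunit levels unlike any other array. Vehicle 3 lay outside the range of the 22 others in 5 of the 7 genes, below it in Gabra2, Gabra4, Gabra5 and Gabrb1 and above it in Gabrb2. CM-414 3 lay outside in 3, below in Gabra5 and Gabrb1 and above in Gabrd. Of the 7 genes Gabra5 was the most alike in both, with differences of -1.23 and -1.33 from the mean of the others. Over all 17092 genes, 14.5% were above and 14% below that range in vehicle 3, and 16.5% and 14.2% in CM-414 3. CM-414 4 also stood somewhat apart, with 9.36% above and 11.9% below the range of the remaining arrays.

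The 2 arrays were not alike in every subunit. Gabra2 differed from the mean of the others by -1.63 in vehicle 3 and by -0.33 in CM-414 3, where it stayed inside the range. Among listed subunit genes outside the 7, Gabrg1, which encodes γ1, was above the range in both, at 8.78 and 9.06 against 7.33 to 8.26. Gabre (ε) was above it in CM-414 3, at 7.52 against 5.08 to 5.96, and inside it in vehicle 3, at 5.52. Gabrq (θ) was at 8.05 in CM-414 3 and at 6.18 in vehicle 3, where CM-414 4 was at 6.23 and the remaining 21 arrays at 4.11 to 4.85, so it was high in both. The GABA transporter Slc6a11 was at 12.16 and 12.15 in the 2 arrays and at 9.94 to 10.42 elsewhere, and Gad2, an enzyme of GABA synthesis, at 10.80 and 10.79 against 9.57 to 10.19. Shisa7, an auxiliary protein of GABA-A receptors, was below the range in both, at 7.21 and 7.64 against 8.20 to 8.94.

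**Figure D3:**
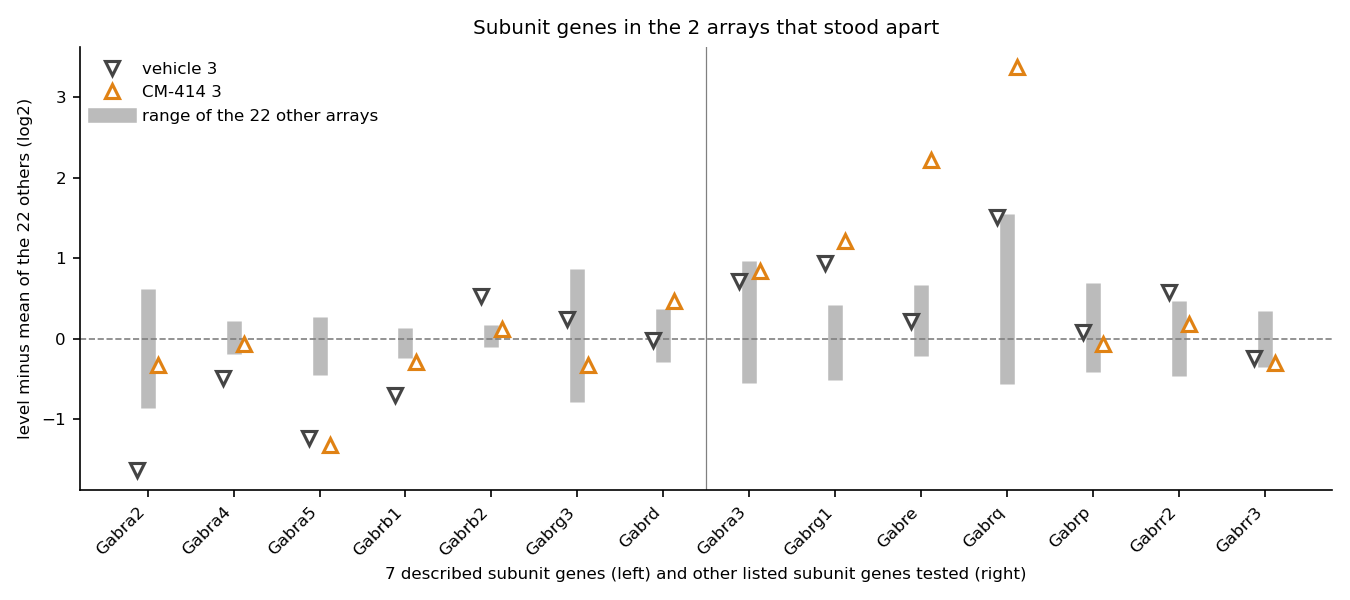
Log2 level in vehicle 3 and CM-414 3 minus the mean of the 22 other arrays (vertical axis) for the 7 genes and for 7 other listed subunit genes; grey bars are the range of the 22 others around their mean. Vehicle 3 and CM-414 3 lie at -1.23 and -1.33 for Gabra5, and CM-414 3 lies at 3.37 for Gabrq.

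The likeness of the members to each other depended on the same 2 arrays. Over 24 arrays, 7 of the 21 pairs had a Pearson r beyond 0.5 in size, and over 22 arrays 1 pair did. The r of Gabra5 with Gabrb1 went from 0.72 to 0.17 and that of Gabra2 with Gabrb1 from 0.67 to 0.15. The 1 pair over 22 arrays was Gabra5 with Gabrg3, which was not among the 7, with r of 0.33 over 24 arrays and 0.67 over 22. These arrays share a normalization and in part a treatment, and r is given as a description.

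Across all tested genes, the 3 most like Gabrg3 over 22 arrays were Siglech (r 0.84), Sergef (0.76) and Sidt1 (0.74). Over all 24 arrays these were 0.77, 0.74 and 0.23. Siglech encodes a sialic acid binding lectin of microglia and Sergef a guanine nucleotide exchange protein. Both lie on chromosome 7 with Gabrg3, with 6 and 55 protein-coding genes between. The r with Siglech was 0.80 in the 11 arrays of the first set and 0.86 in the 11 of the second. It was 0.01 within the 10 arrays of the lower Gabrg3 level and 0.59 within the 12 of the upper.

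Of the 20 genes with the largest r with Gabrg3 in either direction, 11 lie on chromosome 7, where 8.67% of tested genes lie; this look was chosen after the values were seen. They included Herc2 (r 0.68, 1 gene between), Gabra5 (0.67, next to Gabrg3), Tubgcp5 (-0.67, 5 genes between) and Nell1 (-0.73, 15 genes between). Others lay farther off, among them Sult2b1 (0.73, 74 between), Ppp1r15a (-0.73, 92 between), Slc6a16 (-0.75, 109 between) and Ifnl2 (-0.67, 440 between). The direction was therefore not the same along the chromosome. Within the lower and the upper Gabrg3 level, r was -0.39 and 0.26 with Gabra5 and -0.45 and 0.39 with Herc2. It was 0.04 and -0.28 with Tubgcp5 and -0.34 and -0.42 with Nell1. Herc2 encodes a ubiquitin ligase and Tubgcp5 a component of the gamma-tubulin complex. The corresponding counts on a gene's own chromosome were 5 of 20 for Gabra5, 4 for Gabra4, 3 for Gabra2, 2 each for Gabrb2 and Gabrd and 0 for Gabrb1. The shares of tested genes on those chromosomes were 8.67% for Gabra5, 5.96% for Gabra4, Gabra2 and Gabrb1, 8.14% for Gabrb2 and 6.07% for Gabrd. Genotypes were not measured, and the methods describe a C57BL/6/SJL background whereas the labels name a B6 strain.

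**Figure D4:**
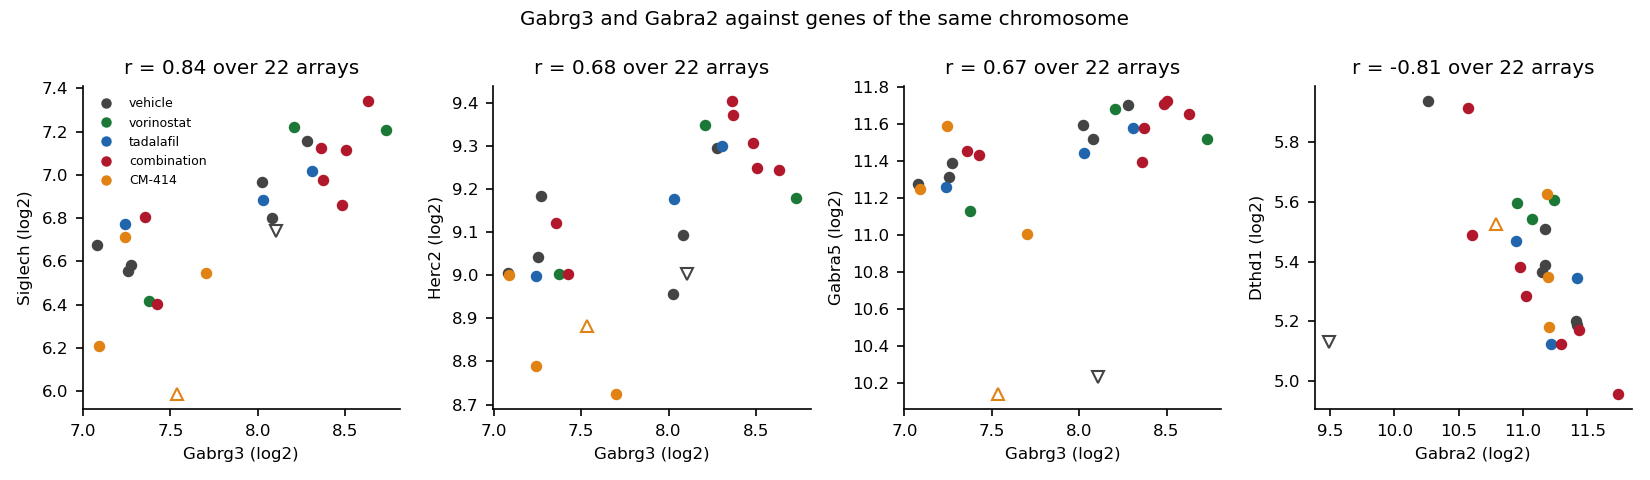
Log2 level of Siglech, Herc2 and Gabra5 against Gabrg3 and of Dthd1 against Gabra2, 1 point per array, coloured by group, with open triangles for vehicle 3 (pointing down) and CM-414 3 (pointing up); r in each panel is over the 22 other arrays. The Gabrg3 values leave the stretch from 7.70 to 8.02 empty, and arrays of vehicle, vorinostat, tadalafil and the combination lie on both sides of it.

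For Gabra2, the genes of highest r were Ptx4 (0.78), Wdr34 (0.72) and Olfr981 (0.69), all on other chromosomes. The r with Ptx4 was 0.25 in the first set and 0.92 in the second. In the opposite direction stood Dthd1 (-0.81) and Tbc1d1 (-0.76), which encodes a GTPase-activating protein of glucose transporter traffic, both on chromosome 5 with Gabra2 and 43 and 38 genes away. Within the 19 arrays above the Gabra2 gap these were -0.66 and -0.67. Over all 24 arrays they were only -0.38 and -0.18, and the r of Ptx4, Wdr34 and Olfr981 was 0.51, 0.16 and 0.49.

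For the other members the genes of highest r were Foxr1 (0.75), Retnlb (0.73) and Denr (0.73) for Gabra4 and Btbd9 (0.79), Sphkap (0.76) and Ndnf (0.76) for Gabra5. They were Mpdz (0.84), Uggt1 (0.84) and Lman2l (0.79) for Gabrb1, Rb1cc1 (0.77), Ltv1 (0.75) and Dtwd1 (0.74) for Gabrb2, and Gipc3, Kmt2c and Diaph2 (each 0.78) for Gabrd. With vehicle 3 and CM-414 3 added, the r of the Gabra5 genes was 0.90, 0.89 and 0.91, while that of Diaph2 with Gabrd went from 0.78 to 0.01. In the order named, the Gabra4 genes then had 0.56, 0.50 and 0.21 and the Gabrb1 genes 0.80, 0.35 and 0.80. The Gabrb2 genes had 0.66, 0.30 and 0.23, and for Gabrd Gipc3 had 0.57 and Kmt2c 0.43.

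The wider GABA system was read from 41 listed genes, of which 34 were tested: other GABA-A and rho subunits, GABA-B receptors, enzymes, transporters, scaffold proteins of inhibitory synapses, trafficking factors and chloride transporters. None passed the adjusted p in any comparison. After vorinostat 30 of the 34 lay below vehicle with a median of -0.09, while over all genes 9174 of 17092 lay below with a median of -0.01. Of the 34, 3 reached an unadjusted p under 0.05 (limma), all lower. At that p 943 of all genes were lower and 554 higher, together 8.76%. Vehicle 3 was above the range of the other arrays in 13 of the 34 genes. Without it and CM-414 3, 23 of the 34 lay below vehicle with a median of -0.07, where 9340 of all genes lay below with a median of -0.02. Of the 34, 6 reached the unadjusted p in that fit, all lower, where 1353 of all 17092 genes were lower and 710 higher. Within the first array set, which holds all vorinostat arrays, 32 of the 34 lay below vehicle with a median of -0.17. There 9430 of all genes lay below with a median of -0.02. In that set without vehicle 3, 29 of the 34 did with a median of -0.12, where 10061 of all genes lay below with a median of -0.03. In the other comparisons with vehicle, 19 of 34 lay below after tadalafil, 16 after the combination and 17 after CM-414, and without the 2 arrays 16, 14 and 19.

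Iqsec3, an exchange factor that binds gephyrin at inhibitory synapses, had the smallest p after vorinostat. It was at 9.22, 9.18 and 9.20 in the vorinostat arrays and from 9.39 through 9.60 to 9.73 in vehicle, so the groups did not overlap, as in 3.48% of all genes. The 3 vehicle arrays of the first set, to which all vorinostat arrays belong, were at 9.49, 9.39 and 9.47, also above them. The difference was -0.36 (SE 0.09, unadjusted p 0.000332, adjusted p 0.315, limma), and -0.25 (SE 0.07, adjusted p 0.474) within that set. Next came Clptm1, which retains GABA-A receptors inside the cell, at -0.17 (SE 0.07, adjusted p 0.523).

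After tadalafil the smallest p were those of Gabrp, the π subunit, at 0.34 (SE 0.11, adjusted p 0.898, limma), and of Iqsec3, at -0.15 (SE 0.09, adjusted p 0.94). Within the first array set, which holds all tadalafil arrays, the Iqsec3 difference was -0.04 (SE 0.07). Gabrp was at 5.15, 5.60 and 5.86 against 5.11 to 5.31 in vehicle. After the combination they were those of Gabrr3, the ρ3 subunit, at -0.22 (SE 0.09, adjusted p 0.995), and Plcl1, a protein that promotes traffic of GABA-A receptors, at -0.21 (SE 0.12, adjusted p 0.995), which was -0.11 (SE 0.09) without vehicle 3 and CM-414 3. After CM-414 they were Gabrr3 again, at -0.39 (SE 0.11, adjusted p 0.153), and Plcl2, a relative of Plcl1, at -0.32 (SE 0.09, adjusted p 0.162). Gabrr3 lay between 3.99 and 4.69 in all arrays, close to the expression floor.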

How the data were processed

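The measurements were gene-level expression of hippocampal RNA on the Mouse Gene 2.0 ST array of Affymetrix. The authors corrected and normalized the 24 arrays by RMA (named in the submitters' processing notes, with no version) and deposited 1 table of log2 values for 41345 probe sets; scanner files were not used here. The platform annotation names 1 gene for 23521 probe sets, several for 1820 and none for 16004. Following the methods of the study, a protein-coding gene was kept when 2 or more arrays of every group exceeded a log2 value of 4, which is 16 before the logarithm, and its probe set of highest mean was used, which left 17092 genes. No genome build is named for the array annotation. Gene positions were read from RefSeq as chromosome and order among protein-coding genes. Base coordinates are given only for the start-site windows.

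Groups came from the labels. limma 3.58.1 in R 4.3.3 was fitted to all 24 arrays with Benjamini-Hochberg adjustment over all genes; the fit was tested on simulated data. The members and lists were chosen with earlier results of these data known. Named beside the 7 members were the 2 genes of the GABA list with the smallest p in each comparison with vehicle, the 3 genes of highest r with each member over 22 arrays, and the marker Tcf7l2; other genes were named after their values were seen. Each array was labelled a biological replica, but the labels say nothing of litter, cage or day. The methods of the study give 3 animals per group for arrays without naming them, so all arrays were used. The number of arrays limits the precision.

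Alternatives were no filter, the mean of all probe sets, centring of each array at its median, weights per array, a prior variance that was robust and followed the mean level, the replicate number as a block, the array set (Snord13 above or below 9) as a block, each set alone, thalamus markers as a covariate, only the groups compared, and each array left out. Fits of each set without vehicle 3 or CM-414 3, and one without 4 arrays, were added after seeing the data.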

Additional observations from a re-analysis of the deposited data

Results flagged for a closer look

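Of 21 groups of at least 4 arrays among the 7 genes, 4 had an end array farther from the rest than Dixon's 95% limit allows. Chance gives about 1 in 20 for independent groups, but these groups share arrays, and all 4 flags were vehicle 3 or CM-414 3. The share of such flags over all genes was not computed. In Gabra2, CM-414 3 at 10.79 lay below the other CM-414 arrays, which were between 11.19 and 11.20. The other 3 were vehicle 3, at 10.23 in Gabra5, where the next vehicle array was at 11.27, at 9.76 in Gabrb1, where the next was at 10.36, and at 10.37 in Gabrb2, where the next was at 9.96. Both arrays had the high thalamus and low CA1 marker means given above. In Gabra2 and Gabra4 vehicle 3 was also the lowest of all arrays, but did not pass this limit, since other vehicle arrays lay between.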

How the results depend on the processing

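None of the 7 genes passed the adjusted p under any of 40 alternative settings, and the smallest adjusted p was 0.0634, for Gabrd in CM-414 against vehicle without CM-414 2. Of 49 differences, 17 kept their direction under every alternative that was run and 32 changed it in at least 1. Among the 17 were Gabrg3 and Gabrd in CM-414 against vehicle and against the combination. With the replicate block, 0 of the 7 genes were called. No paired design was assumed. The r of deviations from the group mean over all genes exceeded 0.1 in 12 of 36 same-numbered pairs of arrays and in 37 of 186 others, with medians of -0.01 and 0.01. The highest r was 0.73, between vehicle 3 and CM-414 3, which share their number and stand apart in tissue markers; the next same-numbered pair had 0.27, as had the highest of the others. Of the 24 arrays, 10 were closest to one of their own number. The count to be had by chance was not computed, and a structure by replicate number was not tested.

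Counts of all genes called by limma moved far more. CM-414 against the combination called 4 genes with all arrays, 268 with the replicate block, 37 with a trended and robust prior, 2 with the thalamus covariate and 0 with array weights, centred arrays, the array set as a block or without vehicle 3 and CM-414 3. With single arrays left out it called 0 to 686, the highest without CM-414 2 and the next, 15, without combination 4. CM-414 against vehicle called 1, with 275 under the replicate block, 14 with the trended prior, 24 with the thalamus covariate and 0 to 323 with single arrays left out, the highest again without CM-414 2 and the next, 51, without vehicle 3. The test over the 5 groups called 26, with 0 under the array set as a block, 52 under the replicate block, 89 with the trended prior, 9 with centred arrays, 1 without vehicle 2, vehicle 3, CM-414 3 and CM-414 4, and 3 to 370 with single arrays left out, the highest without CM-414 2 and the next, 75, without vehicle 3. Vorinostat against vehicle called 1, with 17 under array weights, 4 with the trended prior, 5 without vehicle 3 and 0 with either block. Array weights gave 1 gene with tadalafil against vehicle, and 2 and 6 in the combination against vorinostat and against tadalafil, where the count with all arrays was 0, and single arrays left out gave 0 to 1, 0 to 1 and 0 to 2. The combination against vehicle called 0 in every setting run. Fits of only the 2 groups compared called 0 in all 7 comparisons. The causes were not tested. The standard error of 0.32 for Gabrg3 with 3 vorinostat arrays means that a difference of that size was not detectable.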

Other observations

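Of the listed subunits outside the 7 members, Gabra6 and Gabrr1 had a probe set but did not pass the expression floor. Gabra6, the α6 subunit of cerebellar granule cells, lay between 3.38 and 4.87 in the 22 arrays, and at 3.68 and 3.76 in vehicle 3 and CM-414 3. Gabrr1, the ρ1 subunit known from retina, lay between 3.60 and 4.93 and reached 5.67 in vehicle 3 but 4.44 in CM-414 3. Gabra3, the α3 subunit, was at 10.42 in vehicle 3, 10.55 in CM-414 3 and 10.66 in CM-414 4, above the remaining 21 arrays, which lay between 9.16 and 10.29.

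The combination and vehicle were present in both array sets, so their difference could be compared between sets. For Gabrg3 it was 0.18 in the first set and 0.62 in the second, and the difference between these was 0.44 (SE 0.51, adjusted p 0.888 by limma over the 14 arrays). For Gabra5 it was 0.41 and 0.17, and for Gabra2 0.37 and 0.11. Without vehicle 3 the values of the first set became -0.03 for Gabra5 and -0.27 for Gabra2. None of the 7 genes, and 0 of all genes, passed the adjusted p for this difference in either fit.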
